A study of Mus musculus with 309 samples.

Results

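Untreated mammary tumours of the mouse models labelled KPB1-A and KPB1-B were compared by bulk RNA-seq, with 3 tumours of KPB1-A and 3 tumours of KPB1-B. These 6 libraries were taken by their titles and, for KPB1-B, by library numbers CP-4511 to CP-4513, out of 309 libraries from 24 tumour models in the series. The KPB1-A libraries are numbered CP-4279 to CP-4281, so model and range of library numbers cannot be told apart. Both groups are whole, untreated mouse mammary tumours whose labels give a median survival of 16 days for KPB1-A and 14 days for KPB1-B. What the names KPB1-A and KPB1-B abbreviate is not given in the sources used here, nor are the engineered alleles, the promoter of any Cre, the mouse strain and age, or whether a model comes from 1 tumour or several. A second set of 3 untreated KPB1-B tumours (library numbers CP-2824, CP-2825 and CP-3060) and the tumours of both models treated with trametinib, erlotinib, carboplatin plus paclitaxel, or anti-PD1 plus anti-CTLA4 (3 tumours per model and arm) served as further libraries.

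The mouse mammary epithelium consists of an inner luminal layer, in which hormone-sensing cells carry the oestrogen receptor and alveolar cells can make milk, and an outer basal layer of contractile myoepithelial cells. Keratins are the filament proteins that distinguish these layers. Wnt signals, read out through β-catenin and Tcf/Lef factors, help to maintain basal and progenitor cells in this tissue, and the pathway induces several of its own inhibitors.

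The 3 KPB1-A libraries held 73881943 to 90852444 estimated counts and the 3 KPB1-B libraries 72557270 to 92054200 estimated counts. Mitochondrially encoded transcripts took 1.78 to 2.68% of counts in KPB1-A and 1.99 to 2.67% in KPB1-B. Over all 33 KPB1-A and KPB1-B libraries, treated and untreated, the first principal component held 49.1% of the variance, and every library labelled KPB1-A lay below 0 and every library labelled KPB1-B above 0. The KPB1-B library numbered CP-2825 lay closest to 0, at 1.03, while 1 KPB1-A tumour given carboplatin plus paclitaxel (CP-4288) lay apart on the second component, which held 17.1%. Neither of these libraries is among the 6 compared.

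**Figure D1:**
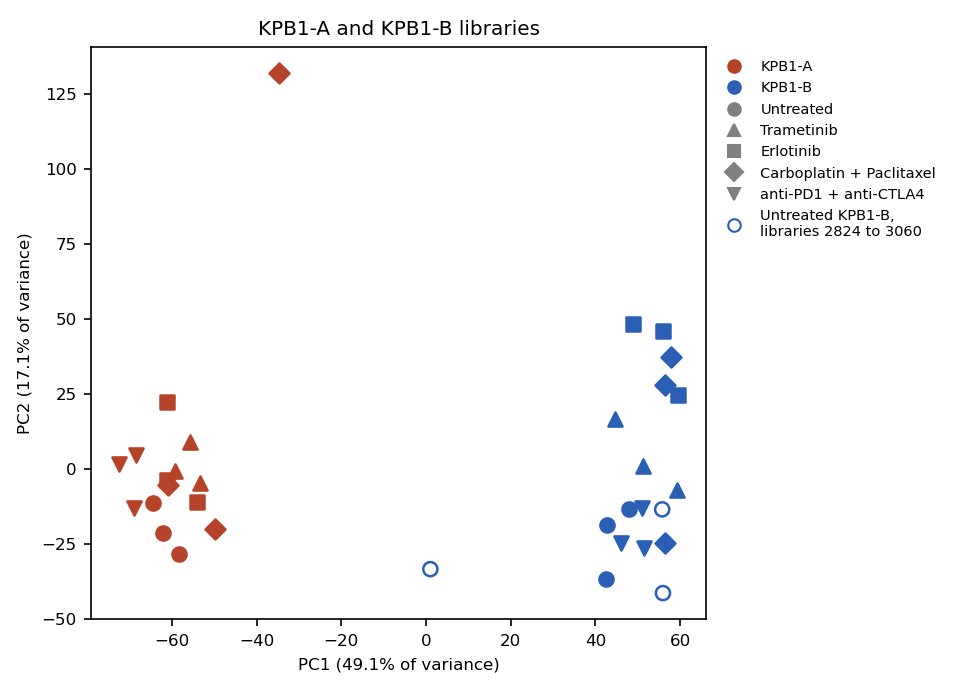
Principal components 1 (49.1% of variance, horizontal axis) and 2 (17.1%, vertical axis) of log2 expression in the 33 libraries of both models, 1 point per tumour, with treatment shown by the marker. KPB1-A and KPB1-B tumours lie on opposite sides of 0 on the first component, with the KPB1-B library CP-2825 at 1.03.

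Between the untreated tumours, 9400 of 18309 genes tested passed an adjusted p of 0.05 (51.3%), 4753 of them higher in KPB1-A (26% of genes tested) and 4647 lower (25.4%). Genes that passed and also differed by more than 2-fold made up 25.8% of genes tested, with 2431 higher (13.3%) and 2298 lower (12.6%). The median log2 fold change over all genes tested was -0.01. The shares of 26% higher and 25.4% lower are the background for every count of list members below. In 60.8% of genes tested the 3 KPB1-A values and the 3 KPB1-B values did not overlap. Expression values below are counts of a gene per 1000000 counts of its library (CPM), given for tumours 1, 2 and 3 of a model in that order. Fold changes are on the log2 scale as KPB1-A over KPB1-B, positive where KPB1-A was higher. The labels do not state whether the 3 tumours of a model came from separate mice, so p-values measure the spread between these tumours. In bulk tissue, fewer cells of a type and less RNA per cell cannot be told apart.

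The genes with the largest excess in KPB1-A included liver, cartilage and mast cell genes. Afm, which encodes the serum vitamin E carrier afamin (chromosome 5, 90518932 to 90553543, mm10), stood at 23.1, 21.1 and 23.2 CPM in KPB1-A and at 0 in all 3 KPB1-B tumours, and was at least 548-fold higher against a floor of 3 counts per library. Its neighbour Alb (chromosome 5, 90460897 to 90476602), the gene of serum albumin, stood at 13.1, 13.8 and 19.9 CPM and at 0 in KPB1-B, at least 381-fold higher. Both genes lie in the albumin cluster of chromosome 5 and are normally transcribed in liver. Group means of the 14 other untreated models with at least 3 tumours reached only 0.00573 CPM for Afm and 0.425 CPM for Alb.

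Fabp7, a fatty acid binding protein of brain and of developing glia, stood at 50.4, 161 and 34.4 CPM in KPB1-A and 0.0318, 0.125 and 0.0273 in KPB1-B (log2 fold change 10.38 ± 0.89 (SE), adjusted p = 7.48e-05). Sycp1, part of the synaptonemal complex that pairs chromosomes in meiosis, stood at 105, 131 and 64.1 against 0.393, 0.301 and 0.287 CPM (log2 fold change 8.25 ± 0.34 (SE), adjusted p = 8.89e-06), and the other models reached a mean of 1.43 CPM at most. A pair of cartilage matrix genes were also in this group. Acan, the proteoglycan aggrecan, stood at 23.1, 38.3 and 42.8 against 0.0954, 0.0501 and 0.0546 CPM (log2 fold change 8.97 ± 0.37 (SE), adjusted p = 8.89e-06). Col2a1, the main cartilage collagen, stood at 79, 154 and 188 against 0.922, 0.577 and 0.382 CPM (log2 fold change 7.79 ± 0.45 (SE), adjusted p = 1.66e-05). The 12 highest genes were taken only from called genes without overlap between models, so the separation of these 4 follows from that rule. A further 5 of the 12 highest genes (Mcpt1, Mcpt2, Mcpt4, Tpsab1 and Tpsb2) encode mast cell proteases and are given with the mast cell markers below.

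Genes with the largest excess in KPB1-B included genes known from germ cells and neural tissue. Gpat2, a mitochondrial acyltransferase best known from the testis (chromosome 2, 127425199 to 127436092), stood at 22.2, 24.2 and 26.7 CPM in KPB1-B and 0.0139, 0.036 and 0.0252 in KPB1-A (log2 fold change -9.8 ± 0.27 (SE), adjusted p = 2.06e-06), and at most 0.222 in the mean of any other model. Stag3, a cohesin subunit of meiosis, stood at 43, 34.3 and 33.1 against 0.125, 0.252 and 0.353 CPM (log2 fold change -7.2 ± 0.32 (SE), adjusted p = 9.10e-06). Tcte1, a testis gene, stood at 12.3, 10.2 and 11.9 CPM in KPB1-B and 0, 0.012 and 0.0252 in KPB1-A, where it rests on too few counts for a fold. The sorting receptor Sorcs1 (-8.54), the synaptic vesicle protein Synpr (-8.46), the channel protein Panx3 (-8.03), the heparanase-related Hpse2 (-8.51), Gtsf1l (-8.26) and the kinase Cdk15 (-7.11) were also among the 12 lowest genes. These 12 were taken only from called genes without overlap between models. The separation of every gene in this paragraph follows from that rule. Gsta3, one of several related glutathione transferases, stood at 111, 130.2 and 156 against 0.458, 1.77 and 0.378 CPM (log2 fold change -7.21 ± 0.56 (SE), adjusted p = 4.97e-05). Oxtr, the oxytocin receptor through which myoepithelial cells contract at milk let-down, stood at 16.4, 12.3 and 13.4 against 0.0834, 0.288 and 0.0756 CPM (log2 fold change -6.5 ± 0.47 (SE), adjusted p = 4.08e-05).

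The X-linked Xlr3a was among the 12 lowest genes as well, at 23.8, 11.2 and 5.72 CPM in KPB1-B and 0.0805, 0.0274 and 0.137 in KPB1-A (log2 fold change -7.34 ± 0.73 (SE), adjusted p = 0.000137). Its near-identical copy Xlr3b went the other way, at 32.3, 33.4 and 29.7 CPM in KPB1-A and 0.15, 0.183 and 0.135 in KPB1-B (log2 fold change 7.66 ± 0.19 (SE), adjusted p = 2.06e-06). Reads of these copies can be split between them by the estimation, so which copy was expressed is uncertain. The related Xlr4a was higher in KPB1-B (-5.93 ± 0.69).

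**Figure D2:**
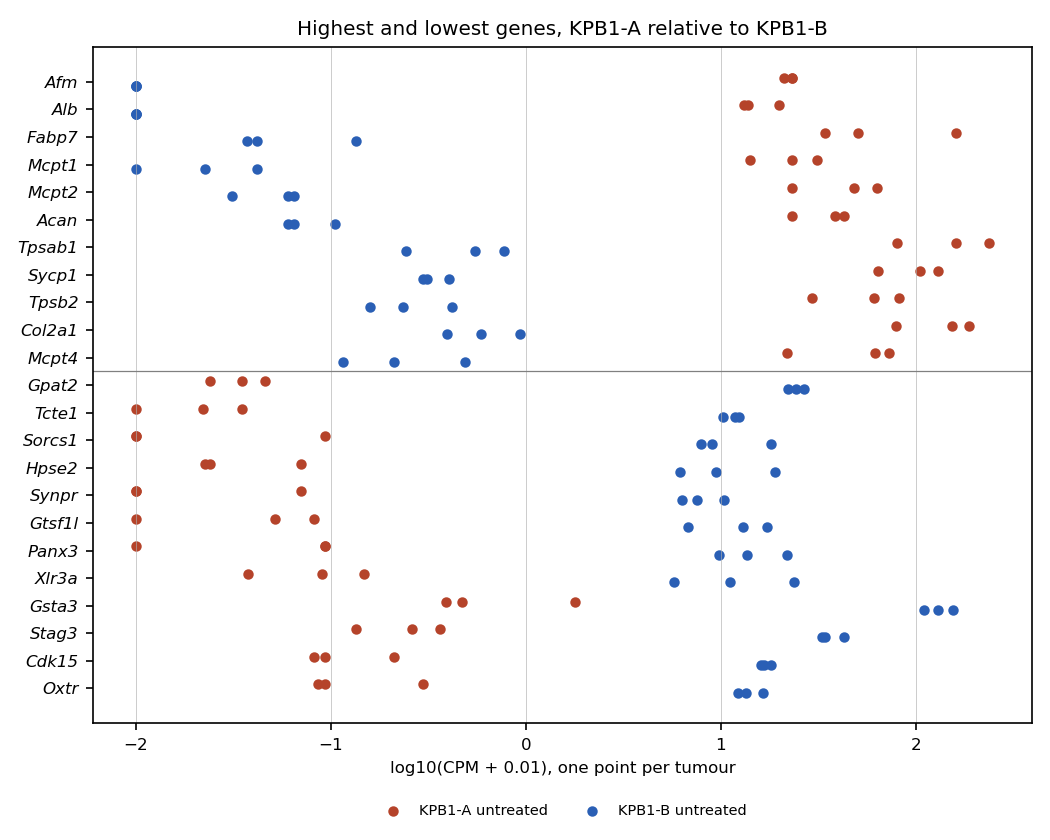
Expression (horizontal axis, log10 of CPM plus 0.01) of the reported genes among the 12 highest (upper part) and the 12 lowest (lower part) in KPB1-A by the naming rule, 1 point per untreated tumour, KPB1-A in red and KPB1-B in blue. No gene shown has overlapping groups, which the naming rule requires, and Afm and Alb are at 0 in all 3 KPB1-B tumours.

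Keratins formed one of the groups most shifted to KPB1-A. Of 18 keratin genes tested, 11 were higher in KPB1-A and 1 lower, with a median log2 fold change of 2.03. Summed over the list, keratins came to 4154 to 6402 CPM in KPB1-A and 1544 to 2220 CPM in KPB1-B, and to 121 to 3388 CPM in the group means of the other models. Krt5, the basal layer's type II keratin, stood at 1957, 1219 and 2586 CPM in KPB1-A and 348, 82.1 and 251 in KPB1-B (log2 fold change 3.1 ± 0.51 (SE), adjusted p = 0.00153), and no other model's mean exceeded 99.8 CPM. Krt8, its luminal counterpart, stood at 579.7, 839.6 and 741 against 68.3, 83.8 and 144 CPM (log2 fold change 2.88 ± 0.29 (SE), adjusted p = 0.000151). Krt19, a keratin of ductal epithelium, stood at 30.0, 41.3 and 35.3 against 0.72, 0.163 and 0.382 CPM (log2 fold change 6.38 ± 0.45 (SE), adjusted p = 3.47e-05). Krt6a, which appears in stressed and progenitor epithelium, stood at 183, 74.7 and 263 against 3.6, 1.44 and 12.3 CPM (log2 fold change 4.93 ± 0.82 (SE), adjusted p = 0.00154). Log2 fold changes were 3.83 for Krt7, 3.62 for Krt4, 1.53 for Krt17, 1.15 for Krt18 and 1.15 for Krt15. Against the 3 earlier KPB1-B libraries that of Krt7 was -1.15, with library CP-2825 at 123 CPM. Krt14, the partner of Krt5 in basal cells, overlapped between models at 429, 305 and 618 and 476, 384 and 421 CPM (log2 fold change 0.09 ± 0.23 (SE), adjusted p = 0.755). Krt23 was the 1 lower member (2 without KPB1-B tumour 1), at 31.2, 34 and 32.6 against 149.7, 141 and 200.1 CPM (log2 fold change -2.31 ± 0.15 (SE), adjusted p = 2.53e-05).

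The luminal list was divided between the models. Of 19 members tested, 7 were higher in KPB1-A and 7 lower (median 0.09). Esr1, the oestrogen receptor, stood at 10.6, 11.9 and 12.5 CPM in KPB1-A and 1.56, 1.29 and 0.423 in KPB1-B (log2 fold change 3.43 ± 0.42 (SE), adjusted p = 0.000382). Foxa1, the factor that opens chromatin for that receptor, stood at 134, 145 and 135 against 12.9, 14.5 and 4.45 CPM (log2 fold change 3.72 ± 0.39 (SE), adjusted p = 0.000185), and the other models' means reached 36.7 CPM. The oestrogen-responsive Greb1 (5.21 ± 0.31), the EGFR ligand Areg (4.35 ± 0.44) and the co-activator Cited1 (4.27 ± 0.34) were higher in KPB1-A as well. The progesterone receptor gene Pgr, a further oestrogen target, overlapped between models (log2 fold change 0.89 ± 0.54 (SE), adjusted p = 0.202).

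Among the luminal genes higher in KPB1-B were Elf5, Ehf and Kit. Elf5, the transcription factor that drives alveolar differentiation, stood at 91.7, 121 and 137 CPM in KPB1-B and 7.0, 46 and 7.12 in KPB1-A (log2 fold change -2.52 ± 0.7 (SE), adjusted p = 0.0173), so that KPB1-A tumour 2 lay well above the other 2 of its model and still below every KPB1-B tumour. Its relative Ehf stood at 629, 701 and 688 against 238, 283 and 241 CPM (log2 fold change -1.39 ± 0.12 (SE), adjusted p = 6.67e-05), and Kit, the receptor of luminal progenitors, at 414, 369.6 and 383 against 123, 208 and 112 CPM (log2 fold change -1.38 ± 0.23 (SE), adjusted p = 0.00144). Csn2, the milk protein β-casein, stood at 78.6, 99.2 and 19.4 against 0.32, 3.96 and 0.504 CPM (log2 fold change -5.33 ± 1.01 (SE), adjusted p = 0.0029), and the milk fat globule gene Btn1a1 at 15, 33.4 and 16.9 against 1.63, 2.45 and 1.83 CPM (log2 fold change -3.45 ± 0.35 (SE), adjusted p = 0.000152). Of 12 alveolar and milk genes tested, 4 were lower in KPB1-A and 1 higher (median -0.72); the count lower was 7 without KPB1-A tumour 2, and the count higher 2 without KPB1-B tumour 2. The 1 higher gene was Spp1, the secreted phosphoprotein osteopontin, at 1069.8, 707 and 1089 against 28.7, 52.4 and 41.5 CPM (log2 fold change 4.56 ± 0.28 (SE), adjusted p = 2.10e-05), which macrophages and other cells also make.

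**Figure D3:**
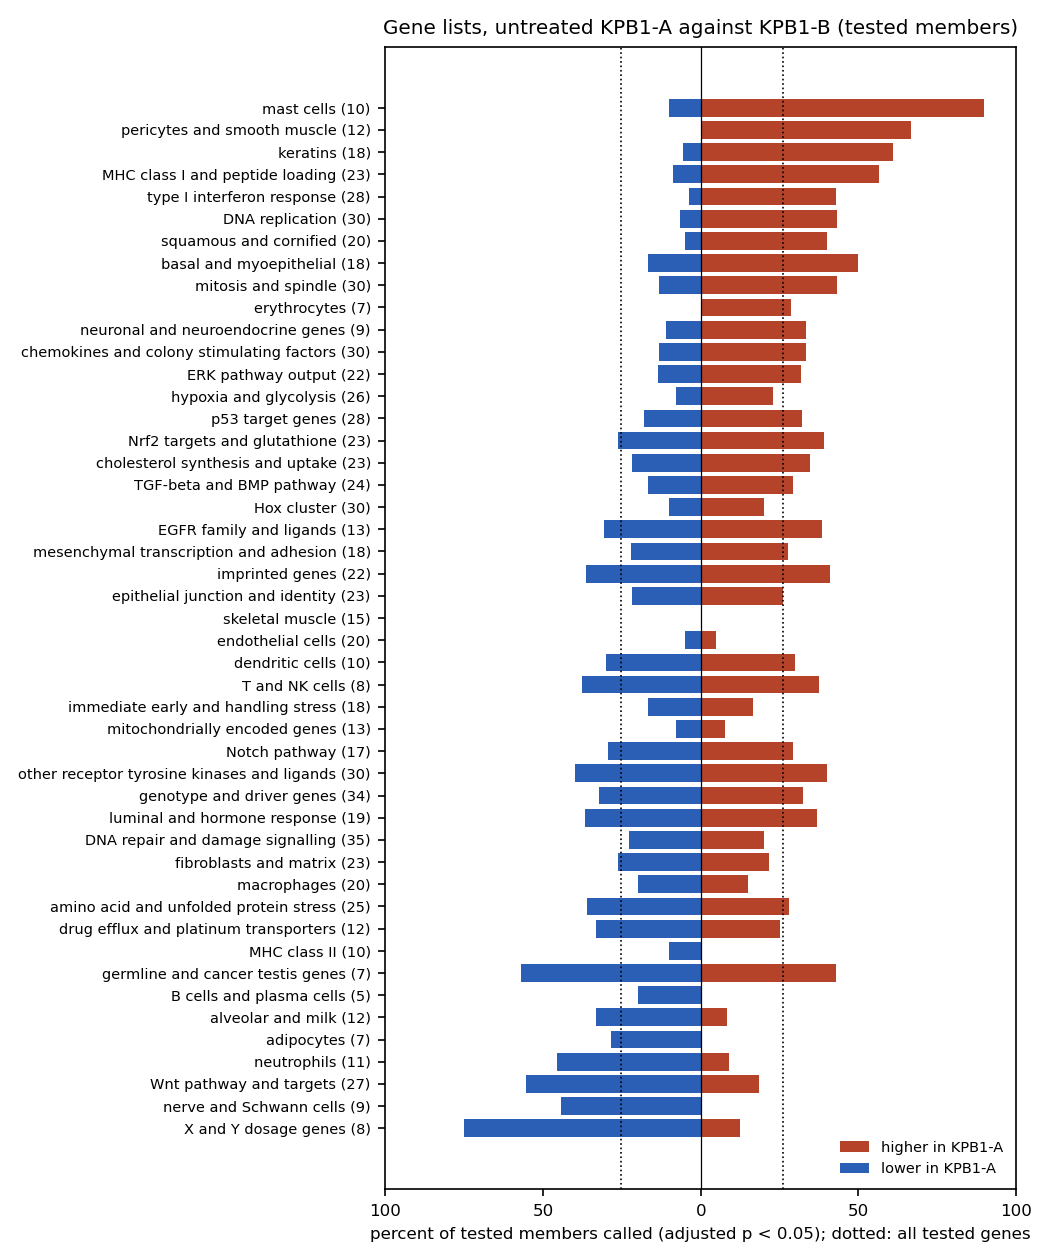
Percent of the tested members of each gene list (vertical axis, number tested in brackets) that passed the test, with members higher in KPB1-A as red bars to the right of 0 and members lower as blue bars to the left. Dotted lines mark all genes tested (26% higher, 25.4% lower); of the keratins 11 of 18 were higher, and of the Wnt list 15 of 27 were lower.

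Basal, squamous and junctional genes did not move as 1 block. Of 18 basal and myoepithelial genes tested, 9 were higher in KPB1-A and 3 lower (median 0.54). Besides Krt5 they included the growth factor binding protein Igfbp2, at 454, 328 and 432 against 12, 20.7 and 48.4 CPM (log2 fold change 3.92 ± 0.49 (SE), adjusted p = 0.00039), and the smooth muscle protein Cnn1 (1.82 ± 0.34). The log2 fold change of Cnn1 was -1.07 against the 3 earlier KPB1-B libraries, -0.23 with all 6 and 2.83 against libraries CP-2824 and CP-3060. Oxtr, Itga6 and Itgb4, a receptor and a pair of integrin subunits of the basal surface, were the 3 lower members. Among 20 squamous genes, 8 were higher and 1 lower (median 1.01; 3 lower without KPB1-A tumour 3), with the desmosomal p63 target Perp at 962, 607 and 1042 against 215, 158 and 249 CPM (log2 fold change 2.09 ± 0.24 (SE), adjusted p = 0.000281). In the epithelial junction list 6 of 23 were higher and 5 lower (median -0.01), and 10 were higher without KPB1-B tumour 3. E-cadherin (Cdh1) was lower in KPB1-A, at 268, 284 and 213 against 425.5, 494 and 453 CPM (log2 fold change -0.82 ± 0.14 (SE), adjusted p = 0.0015), and the adhesion molecule Epcam overlapped, at 467, 501 and 527 and 415, 403 and 534 CPM (log2 fold change 0.16 ± 0.13 (SE), adjusted p = 0.339).

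In the mesenchymal list 5 of 18 genes were higher and 4 lower (median -0.03), and the 50.0% called lay near the 51.3% of all genes tested. Vim, the filament of mesenchymal cells, overlapped between models (log2 fold change -0.25 ± 0.19 (SE), adjusted p = 0.282), and against libraries CP-2824 and CP-3060 alone it stood at 0.64 with an adjusted p of 0.0197. The matrix protein Tgfbi stood at 170.1, 110.4 and 154 against 14.4, 21 and 23.9 CPM (log2 fold change 2.89 ± 0.23 (SE), adjusted p = 6.08e-05), and the factor Foxc2 was lower (log2 fold change -2.71 ± 0.3 (SE), adjusted p = 0.000211). Of 9 nerve and Schwann cell genes tested, 4 were lower in KPB1-A and none higher. The myelin gene Mbp, at 22.6, 21.2 and 24.3 against 160.2, 75.2 and 77.2 CPM (log2 fold change -2.18 ± 0.29 (SE), adjusted p = 0.000506), was among them. Sox10, the defining factor of Schwann cells that mammary epithelium also expresses, stood at 343, 421 and 393 and 335, 336 and 486 CPM and overlapped (log2 fold change 0.02 ± 0.17 (SE), adjusted p = 0.936).

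Wnt pathway members and targets were shifted to KPB1-B. Of 27 tested, 15 were lower in KPB1-A and 5 higher (median -0.95), and 3 were higher without KPB1-B tumour 2. The list summed to 1381 to 1479 CPM in KPB1-A and 4350 to 5463 CPM in KPB1-B, while the other models' means summed to 346 to 1213 CPM. A large part of the KPB1-B sum came from the receptor gene Fzd7, at 451, 424 and 395 CPM in KPB1-A and 3289.9, 2533 and 2389 in KPB1-B (log2 fold change -2.67 ± 0.16 (SE), adjusted p = 1.80e-05). The receptor Lgr4, which binds R-spondins, stood at 57.8, 49.2 and 50.5 against 246, 248 and 169 CPM (log2 fold change -2.05 ± 0.17 (SE), adjusted p = 5.99e-05).

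Several inhibitors of the pathway were among the lower members. Axin2, a scaffold of the complex that destroys β-catenin (chromosome 11, 108920349 to 108950783), stood at 4.72, 3.37 and 5.78 CPM in KPB1-A and 37.6, 41.5 and 45.4 in KPB1-B (log2 fold change -3.15 ± 0.21 (SE), adjusted p = 2.90e-05). Notum, a secreted enzyme that inactivates Wnt ligands (chromosome 11, 120653788 to 120661175), stood at 1.51, 0.384 and 1.17 against 14.9, 22.1 and 16.8 CPM (log2 fold change -4.12 ± 0.46 (SE), adjusted p = 0.000243). Wif1, a secreted Wnt-binding inhibitor (chromosome 10, 121033960 to 121100650), stood at 18, 16 and 9.87 against 247, 224 and 208 CPM (log2 fold change -3.93 ± 0.23 (SE), adjusted p = 1.80e-05). In all 3 genes every KPB1-B tumour lay above every KPB1-A tumour. Groups without overlap were found in 60.8% of all genes tested, so this does not set the 3 genes apart. Nkd1 (-1.72 ± 0.25), the ubiquitin ligases Rnf43 (-1.46 ± 0.11) and Znrf3 (-1.12 ± 0.11), and the factor Tcf7 (-1.15 ± 0.11) were lower in KPB1-A too. Lgr5, a stem cell receptor and target, overlapped between the models at 65.8, 73.2 and 46.5 and 42.3, 67.3 and 46.9 CPM (log2 fold change 0.26 ± 0.22 (SE), adjusted p = 0.34). Against libraries CP-2824 and CP-3060 alone its log2 fold change was -1.01 with an adjusted p of 0.0134 by edgeR.

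Sp5, a transcription factor gene and known Wnt target, stood at 0.222, 0.168 and 0.391 CPM in KPB1-A and 1.46, 1.39 and 3.01 in KPB1-B (log2 fold change -2.88 ± 0.46 (SE), adjusted p = 0.00126). Its promoter is shown because it carries 2 matches to CTTTGA, the core letters of the sequence that Tcf/Lef factors bind. The 250 bases before the RefSeq start (chr2:70474673-70474922, plus strand, GRCm38.p6) read as follows, with the matches in capitals.
Sp5: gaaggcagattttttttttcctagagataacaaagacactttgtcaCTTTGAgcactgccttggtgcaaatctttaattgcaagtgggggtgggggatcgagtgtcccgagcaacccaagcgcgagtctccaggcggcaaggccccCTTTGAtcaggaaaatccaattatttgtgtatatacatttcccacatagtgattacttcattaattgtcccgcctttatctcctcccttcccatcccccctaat
CTTTGA was searched on both strands in windows of 250 bases before to 50 after each RefSeq start, and its matches did not overlap. A match was found for 18.2% of 27025 genes and for 2 of the 11 Wnt list genes higher in KPB1-B that had a window (18.2%). The other of these was Wnt5b, at a downstream start. Of list genes with a window, 1 of 2 higher in KPB1-A and 1 of 4 not called had a match as well. The former was Lef1, which carries 2 matches at a downstream start.

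The 5 members higher in KPB1-A were Lef1 and 4 Wnt ligands. Lef1, the partner of β-catenin, stood at 2.29, 3.12 and 1.01 CPM in KPB1-A and 0.159, 0.0376 and 0.123 in KPB1-B (log2 fold change 4.31 ± 0.6 (SE), adjusted p = 0.000643). The ligands Wnt10b (1.85 ± 0.28), Wnt7b (1.5 ± 0.36), Wnt10a (1.07 ± 0.3) and Wnt5a (0.59 ± 0.18) were higher in KPB1-A, and Wnt5b (-1.46 ± 0.22) was lower. Across the Notch list, 5 of 17 were higher and 5 lower (median -0.14). The receptor Notch1 (-0.86 ± 0.13) and the ligand Dll1 (-0.99 ± 0.15) were lower in KPB1-A, while the target factors Hey1 (1.22 ± 0.19) and Hey2 (1.44 ± 0.27) and the glycosyltransferase Lfng (1.28 ± 0.12) were higher. In the TGF-β and BMP list, 7 of 24 were higher and 4 lower; the count higher was 3 without KPB1-B tumour 2 and 4 without KPB1-A tumour 1. The ligand Tgfb2 stood at 8.61, 9.76 and 5.82 against 46, 36.8 and 37.1 CPM (log2 fold change -2.29 ± 0.21 (SE), adjusted p = 9.41e-05), the activin subunit Inhba was higher (1.58 ± 0.2), and Tgfb1 passed the test with overlapping tumours (0.61 ± 0.2), though not without KPB1-A tumour 1 or 3 or KPB1-B tumour 1 or 2 (adjusted p = 0.0772 to 0.103 by edgeR).

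Among receptor tyrosine kinases and their ligands, the ligands Igf2 and Fgf7 differed most. Of 30 receptors and ligands outside the EGFR family, 12 were higher in KPB1-A and 12 lower (median -0.13), and the count higher was 8 without KPB1-A tumour 1 or without KPB1-B tumour 2. Igf2, a fetal growth factor, stood at 24.6, 16.9 and 16.8 against 0.35, 1.04 and 0.328 CPM (log2 fold change 5.1 ± 0.48 (SE), adjusted p = 0.000103). Fgf7, a ligand of epithelial Fgfr2 isoforms, stood at 17.4, 15.6 and 10.2 against 1.98, 0.526 and 0.369 CPM (log2 fold change 3.91 ± 0.61 (SE), adjusted p = 0.00112), and Fgf1 at 17.4, 16.4 and 18.4 against 3.02, 4.17 and 2.2 CPM (log2 fold change 2.49 ± 0.24 (SE), adjusted p = 0.000123). Their relative Fgf2 lay the other way (-1.91 ± 0.26), as did Igf1 (-1.69 ± 0.28).

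Among the receptors, Fgfr4 (2.57 ± 0.26) and Axl (1.26 ± 0.16) were higher in KPB1-A. Met, the receptor of hepatocyte growth factor, was lower at 15.5, 21.7 and 21 against 41.3, 45.6 and 49.5 CPM (log2 fold change -1.21 ± 0.15 (SE), adjusted p = 0.000391), and Mst1r (-2.36 ± 0.39) and Kit were lower with it. The Kit ligand gene Kitl was higher in KPB1-A (1.1 ± 0.23), opposite to its receptor. In the EGFR family 5 of 13 genes were higher and 4 lower (median 0.51). Egfr itself stood at 55.6, 49.3 and 60.8 against 41.2, 41.3 and 35.5 CPM (log2 fold change 0.51 ± 0.12 (SE), adjusted p = 0.00712) and Erbb2 at 83.8, 84.8 and 80.0 against 126, 122 and 151 CPM (log2 fold change -0.66 ± 0.11 (SE), adjusted p = 0.00173). The ligands Areg and Ereg (1.55 ± 0.3) were higher in KPB1-A, and Tgfa was lower, at 61.7, 56.2 and 55.2 against 194, 196 and 154 CPM (log2 fold change -1.64 ± 0.12 (SE), adjusted p = 4.71e-05).

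Genes induced by ERK signalling were split. Of 22 tested, 7 were higher in KPB1-A and 3 lower (median 0.2). The phosphatase Dusp6, an ERK feedback inhibitor, stood at 392, 635 and 367 against 215, 145 and 232 CPM (log2 fold change 1.25 ± 0.25 (SE), adjusted p = 0.0038), and the AP-1 subunit Fosl1 was higher as well (2.26 ± 0.57). Dusp4, a second phosphatase of the pathway, was lower (-1.32 ± 0.17), and so was the ETS factor Etv1 (-2.48 ± 0.45).

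Tumour suppressors and oncogenes often deleted or amplified in mammary tumour models were read individually. Trp53 stood at 11.8, 11 and 14.7 CPM in KPB1-A and 13.7, 15 and 16.7 in KPB1-B (log2 fold change -0.26 ± 0.16 (SE), adjusted p = 0.209), and the mean of each other model lay above every one of these 6 values, from 19.9 to 183 CPM. Brca1 stood at 29.4, 34.5 and 31.4 and 34.2, 30.0 and 29.4 CPM (log2 fold change 0.04 ± 0.11 (SE), adjusted p = 0.778), within the other models' range. Neither gene separated the models, and which exons the transcripts contain was not measured here. Rb1, the retinoblastoma gene, was lower in KPB1-A at 14.4, 18.8 and 13.7 against 34.9, 33.1 and 24.9 CPM (log2 fold change -0.97 ± 0.18 (SE), adjusted p = 0.00258), and the Ras regulator Nf1 was lower at 63.2, 55.4 and 56.1 against 159, 110.1 and 91 CPM (log2 fold change -1.03 ± 0.19 (SE), adjusted p = 0.00293). Cyclin D1 (Ccnd1) was higher in KPB1-A at 723, 892 and 752 against 258, 317 and 339 CPM (log2 fold change 1.39 ± 0.14 (SE), adjusted p = 0.000166), as was Mycn at 9.17, 9.38 and 5.65 against 3.35, 2.34 and 4.93 CPM (log2 fold change 1.21 ± 0.32 (SE), adjusted p = 0.0137), which did not pass without KPB1-A tumour 1 (adjusted p = 0.0523). Myc (0.32 ± 0.16) and Cdkn2a (0.02 ± 0.17) did not pass the test. Of 34 genes of this list tested, 11 were higher and 11 lower (median -0.04), and the count higher was 4 without KPB1-A tumour 1 and 6 without KPB1-B tumour 2.

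Of 28 p53 target genes, 9 were higher in KPB1-A and 5 lower (median 0.11). Cdkn1a, the cell cycle inhibitor p21, stood at 119, 77.1 and 94.4 against 57.1, 40.9 and 48.8 CPM (log2 fold change 1.0 ± 0.18 (SE), adjusted p = 0.00253), and Btg2 (1.29 ± 0.17), the death receptor Fas (1.25 ± 0.25) and Mdm2 (0.34 ± 0.11) were also higher. When 1 tumour was left out, Mdm2 passed in 1 of 6 cases, that without KPB1-B tumour 1 (adjusted p in the others 0.0529 to 0.102 by edgeR). For DNA replication, 13 of 30 genes were higher and 2 lower (median 0.25), and none was lower without KPB1-A tumour 1 and 1 without KPB1-A tumour 3. Its 4 most changed members, the clamp loader subunits Rfc3 (1.47 ± 0.13) and Rfc5 (1.18 ± 0.14), the polymerase Pole (1.2 ± 0.22) and the helicase subunit Mcm7 (1.1 ± 0.1), all lie on chromosome 5, which is described below. Mitotic genes were higher in 13 of 30 cases and lower in 4 (median 0.11), or lower in 2 without KPB1-A tumour 1. The cytokinesis scaffold Anln stood at 454, 414 and 541 against 138, 111 and 106 CPM (log2 fold change 2.0 ± 0.15 (SE), adjusted p = 4.32e-05) and the kinase Cdk1 at 244, 276 and 283 against 102, 107 and 136 CPM (log2 fold change 1.23 ± 0.14 (SE), adjusted p = 0.000219). The proliferation marker Mki67 overlapped between models (log2 fold change -0.27 ± 0.2 (SE), adjusted p = 0.299). Top2a was slightly lower (log2 fold change -0.36 ± 0.11 (SE), adjusted p = 0.0305), and when 1 tumour was left out passed in 1 of 6 cases, that without KPB1-B tumour 3 (adjusted p in the others 0.0725 to 0.105 by edgeR). Against the 3 earlier KPB1-B libraries its log2 fold change was 0.012. In the main comparison the cell cycle factor Mybl2 was lower (log2 fold change -1.68 ± 0.11 (SE), adjusted p = 2.53e-05).

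DNA repair genes were divided, with 7 of 35 higher and 8 lower (median -0.08). The 42.9% called lay below the 51.3% of all genes tested. Without KPB1-A tumour 1, 3 were lower, and without KPB1-A tumour 3, 4, and without KPB1-B tumour 1 or 2, 5. The recombination gene Xrcc2 stood at 27.4, 27.8 and 21.8 against 6.66, 7.42 and 7.35 CPM (log2 fold change 1.86 ± 0.15 (SE), adjusted p = 5.82e-05). Palb2, which links BRCA1 to BRCA2, was lower at 9.29, 9.22 and 8.61 against 24.4, 23.6 and 16.6 CPM (log2 fold change -1.23 ± 0.17 (SE), adjusted p = 0.000704), and Fancd2 was lower too (-1.19 ± 0.17). Brca2 was higher (0.81 ± 0.25) but did not pass without KPB1-A tumour 1 or 2 or KPB1-B tumour 2 (adjusted p = 0.0666 to 0.0876 by edgeR). Among 12 drug transporters, 3 were higher and 4 lower, with 1 higher without KPB1-A tumour 1. The P-glycoprotein genes Abcb1a and Abcb1b did not pass the test (adjusted p = 0.137 and 0.178), and Abcg2 was lower in KPB1-A (-1.07 ± 0.26).

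Imprinted genes, of which only the maternal or the paternal copy is normally transcribed, were divided between the models. Mest, transcribed from the paternal allele (chromosome 6, 30723547 to 30748465), stood at 772, 1087 and 778 CPM in KPB1-A and 15.7, 21.6 and 17.3 in KPB1-B (log2 fold change 5.61 ± 0.21 (SE), adjusted p = 6.46e-06), above the 154 CPM of the highest other model. Peg3 stood at 575, 515 and 451 against 51, 51.9 and 25.5 CPM (log2 fold change 3.6 ± 0.28 (SE), adjusted p = 5.05e-05), and the highest other model mean was 184 CPM. Plagl1, a zinc finger factor known to regulate other imprinted genes, stood at 50.4, 86.4 and 53 against 3.08, 3.66 and 3.81 CPM (log2 fold change 4.19 ± 0.24 (SE), adjusted p = 1.67e-05). Igf2, given above, Phlda2 (2.65 ± 0.18) and Dlk1 (1.97 ± 0.27) were higher in KPB1-A as well. H19, which shares its control region with Igf2, overlapped between models at 8.36, 9.03 and 10.0 and 6.71, 23.9 and 6.2 CPM (log2 fold change -0.41 ± 0.48 (SE), adjusted p = 0.509). Over 22 imprinted genes tested, 9 were higher and 8 lower (median -0.19), with Ndn (-1.91 ± 0.35) and Peg10 (-1.66 ± 0.29) the most changed of the lower ones; the count lower was 4 without KPB1-A tumour 1 or tumour 3 and 5 without tumour 2. Allele-specific reads were not measured here.

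Xist, the RNA that coats the inactive X chromosome, stood at 59.5, 52.8 and 39.9 CPM in KPB1-A and 1129.7, 817 and 579.7 in KPB1-B (log2 fold change -4.03 ± 0.28 (SE), adjusted p = 3.26e-05). The lowest of 14 other models had a mean of 124 CPM, above all 3 KPB1-A tumours. Of 8 X and Y dosage genes tested, 6 were lower in KPB1-A and 1 higher. Of those known to escape X inactivation, Kdm6a stood at 23.4, 25.7 and 19.3 against 107, 104 and 78.2 CPM (log2 fold change -2.06 ± 0.16 (SE), adjusted p = 5.27e-05), and Ddx3x (-0.91 ± 0.16), Kdm5c (-0.86 ± 0.1) and Eif2s3x (-0.44 ± 0.1) shared the direction. Over all 564 X-linked genes tested the median log2 fold change was -0.14, with 95 higher and 158 lower. The Y-linked Ddx3y, Eif2s3y and Uty were at 0 in all 6 tumours. Tsix, antisense to Xist, was higher in KPB1-A (log2 fold change 3.3 ± 0.67 (SE), adjusted p = 0.00399), but whether the counting used strand is not given in the sources used here. In the Hox clusters 6 of 30 tested genes were higher and 3 lower (median 0.01), and the 30.0% called lay below the 51.3% of all genes tested. Hoxa5 (1.79 ± 0.18), Hoxa6 (2.0 ± 0.37) and Hoxb13 (1.62 ± 0.25) were among the higher, and Hoxc13, a regulator of hair keratins, was lower at 0.0278, 0.036 and 0.0378 against 2.52, 9.71 and 2.6 CPM (log2 fold change -7.1 ± 0.75 (SE), adjusted p = 0.00019). Over the 3 KPB1-A tumours Hoxc13 rests on 8 counts, so the size of its fold is uncertain.

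Antigen presentation genes of class I were higher in KPB1-A. Of 23 tested, 13 were higher and 2 lower (median 0.79; 1 lower when any tumour but KPB1-B tumour 1 was left out), and the list summed to 2474 to 2767 CPM against 1215 to 1586 CPM. Nlrc5, the transactivator of class I genes, stood at 20.4, 17.7 and 18.2 against 3.64, 2.02 and 2.39 CPM (log2 fold change 2.82 ± 0.24 (SE), adjusted p = 7.25e-05), and Irf1 at 89.8, 79.2 and 100.4 against 25.3, 26.4 and 28.8 CPM (log2 fold change 1.76 ± 0.12 (SE), adjusted p = 3.04e-05). The class I heavy chain H2-D1 stood at 878, 871 and 949 against 328, 276 and 391 CPM (log2 fold change 1.46 ± 0.14 (SE), adjusted p = 0.000135), and its light chain B2m at 287, 259 and 322 against 117, 101 and 114 CPM (log2 fold change 1.4 ± 0.12 (SE), adjusted p = 7.03e-05). Both models lay below all 14 other models in B2m, whose means ran from 469 to 2335 CPM. Against the 3 earlier KPB1-B libraries, which held 152, 503 and 411 CPM of B2m, its log2 fold change was -0.31. Reads of the highly similar H2 genes can be split between them. Cd274, the checkpoint ligand PD-L1, overlapped at 2.85, 2.28 and 2.81 and 3.88, 2.11 and 2.79 CPM (log2 fold change -0.13 ± 0.27 (SE), adjusted p = 0.714).

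Type I interferon response genes were higher in 12 of 28 cases and lower in 1 (median 0.53), with 3 lower without KPB1-A tumour 3. Oasl2 stood at 24.6, 19 and 21.7 against 3.93, 4.41 and 4.54 CPM (log2 fold change 2.36 ± 0.16 (SE), adjusted p = 3.15e-05), Ifit1 at 1.03, 1.61 and 1.47 against 0.381, 0.563 and 0.273 CPM (log2 fold change 1.77 ± 0.35 (SE), adjusted p = 0.0038) and Mx1 at 1.51, 1.16 and 1.47 against 0.318, 0.389 and 0.369 CPM (log2 fold change 1.96 ± 0.28 (SE), adjusted p = 0.000692). The levels were low in both models: the list summed to 216 to 237 CPM in KPB1-A and 166 to 174 CPM in KPB1-B, and to at least 363 CPM in every other model. With the earlier KPB1-B libraries CP-2824 and CP-3060 as the comparison, 6 members were higher, and with library CP-2825 added to them none was; Ifit1 then stood at -0.26. Of the 13 called members, 7 had the same sign under trametinib (1 of them called), 9 under erlotinib (2 called), 12 under carboplatin plus paclitaxel (0 called) and 13 under anti-PD1 plus anti-CTLA4 (6 called). Class II genes did not separate the models: 0 of 10 were higher and 1 lower (none without KPB1-A tumour 1 or 2 or KPB1-B tumour 1), and their shared chaperone Cd74 overlapped (log2 fold change 0.26 ± 0.33 (SE), adjusted p = 0.524).

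Chemokine and cytokine genes were higher in 10 of 30 cases and lower in 4 (median 0.13), with 7 lower without KPB1-A tumour 3. Cxcl10, a ligand of the chemokine receptor CXCR3 on T cells, stood at 2.83, 8.36 and 2.7 against 0.286, 0.213 and 0.301 CPM (log2 fold change 4.13 ± 0.52 (SE), adjusted p = 0.000413), and Cxcl5, which draws neutrophils, at 2.92, 2.49 and 8.52 against 0.583, 0.288 and 0.369 CPM (log2 fold change 3.49 ± 0.55 (SE), adjusted p = 0.00116). The mucosal chemokine Cxcl17 was higher too (3.57 ± 0.42), while Cxcl1 overlapped (log2 fold change 0.62 ± 0.34 (SE), adjusted p = 0.165) and so did Ccl2 (log2 fold change -0.28 ± 0.24 (SE), adjusted p = 0.36).

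Mast cell genes set the models apart most clearly among the cell type markers. Of 10 tested, 9 were higher in KPB1-A and 1 lower, in every alternative analysis run. Cpa3, the mast cell carboxypeptidase (chromosome 3, 20215620 to 20242181), stood at 45.9, 11.6 and 24.9 CPM in KPB1-A and 0.0318, 0.163 and 0.232 in KPB1-B (log2 fold change 7.66 ± 0.74 (SE), adjusted p = 0.000119). The chymase Mcpt4 stood at 72.8, 21.9 and 62.1 against 0.106, 0.201 and 0.478 CPM (log2 fold change 7.7 ± 0.66 (SE), adjusted p = 7.45e-05) and the tryptase Tpsb2 at 81.9, 29.3 and 61 against 0.148, 0.226 and 0.41 CPM (log2 fold change 7.83 ± 0.53 (SE), adjusted p = 3.04e-05). KPB1-A tumour 2 had the lowest level of all 3 and still lay above every KPB1-B tumour, as the naming rule required for Mcpt4 and Tpsb2. Tpsab1 (8.34 ± 0.57), Mcpt1 (10.36 ± 0.57) and Mcpt2 (10.07 ± 0.55) followed the same pattern, and the naming rule required their separation too. Related proteases of this group can share reads. Over the 3 KPB1-B tumours Mcpt1 rests on 4 counts and Mcpt2 on 10, so the sizes of their folds are uncertain. The high-affinity IgE receptor gene Fcer1a stood at 5.38, 1.88 and 3.01 CPM in KPB1-A and 0, 0 and 0.0273 in KPB1-B. Kit, the 1 lower member, is also made by luminal epithelium. Without Kit the list summed to 277.5, 85.4 and 199 CPM in KPB1-A and 3.2, 3.94 and 4.74 CPM in KPB1-B.

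Most T and NK cell markers were too low to be tested, and the rest were divided. The T cell receptor subunit Cd3e stood at 0.0278, 0.012 and 0.0126 CPM in KPB1-A and 0.053, 0.0501 and 0.0683 in KPB1-B, and Cd8a at 0.0695, 0.0959 and 0.0882 and 0.138, 0.0752 and 0.328 CPM, both untested. Of 8 list members tested, 3 were higher in KPB1-A and 3 lower (median -0.7), with 1 lower without KPB1-A tumour 2 or KPB1-B tumour 2. The T cell receptor genes went both ways, with Trac at 0.264, 0.384 and 0.454 against 0.879, 1.2 and 1.58 CPM (log2 fold change -1.71 ± 0.35 (SE), adjusted p = 0.00416) and Trbc2 at 1.98, 1.61 and 4.35 against 0.379, 0.203 and 0.228 CPM (log2 fold change 3.28 ± 0.47 (SE), adjusted p = 0.00077). The kinase Zap70 (-1.32 ± 0.46) and the interleukin receptor subunit Il2rb (-1.33 ± 0.41) were lower too. Lck, a kinase of T cells, stood at 57, 63.1 and 61.5 against 32.7, 20.5 and 13 CPM (log2 fold change 1.47 ± 0.29 (SE), adjusted p = 0.0033), and Ctla4 at 9.34, 2.73 and 3.2 against 0.996, 0.414 and 0.164 CPM (log2 fold change 3.28 ± 0.71 (SE), adjusted p = 0.00556). Of 20 macrophage genes, 3 were higher and 4 lower; 1 was lower without KPB1-A tumour 1, KPB1-A tumour 2 or KPB1-B tumour 2 and 2 without KPB1-B tumour 3, while 1 was higher without KPB1-A tumour 2 or KPB1-B tumour 3. The mannose receptor Mrc1 was lower at 11.7, 11.1 and 17.9 against 38.8, 73.1 and 37.1 CPM (log2 fold change -1.86 ± 0.3 (SE), adjusted p = 0.0014). Of 11 neutrophil genes, 5 were lower and 1 higher (2 without KPB1-A tumour 2). Among the lower was S100a8, at 1.44, 1.03 and 0.97 against 4.34, 3.03 and 2.75 CPM (log2 fold change -1.53 ± 0.28 (SE), adjusted p = 0.00249). Only 1 was lower against the 3 earlier KPB1-B libraries, and 2 with all 6 untreated KPB1-B libraries or in 1 fit over 33 libraries. S100a9 and Cxcr2, lower in the main comparison, stood at 0.47 and 0.085 against the 3 earlier libraries.

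Pericyte and smooth muscle genes were higher in 8 of 12 cases and lower in none (median 1.05), with a summed level of 1375 to 1460 CPM against 672 to 837 CPM. The pericyte markers Rgs5, at 361, 339.7 and 264 against 169, 146 and 91.1 CPM (log2 fold change 1.27 ± 0.23 (SE), adjusted p = 0.00235), and Cspg4, at 58.2, 50.6 and 61.5 against 18.2, 18.7 and 15.1 CPM (log2 fold change 1.73 ± 0.13 (SE), adjusted p = 4.51e-05), were among them. Endothelial genes did not follow: the junction genes Pecam1 (log2 fold change -0.1 ± 0.16 (SE), adjusted p = 0.622) and Cdh5 (log2 fold change -0.01 ± 0.15 (SE), adjusted p = 0.972) overlapped, Erg was higher (2.48 ± 0.2) and Kdr lower (-0.53 ± 0.15), though not without KPB1-A tumour 1 or 2 or KPB1-B tumour 2 (adjusted p = 0.0548 to 0.0615 by edgeR). The 23 fibroblast and matrix genes were divided into 5 higher and 6 lower, and the count lower was 11 without KPB1-A tumour 3 and 3 without KPB1-B tumour 2. Postn, a matrix protein of activated fibroblasts, stood at 589, 469 and 744 against 192, 225 and 176 CPM (log2 fold change 1.62 ± 0.18 (SE), adjusted p = 0.000241), and Col1a1 overlapped (log2 fold change -0.5 ± 0.22 (SE), adjusted p = 0.0938). Skeletal muscle genes, of which none of 15 was called, summed to 1464 CPM in KPB1-B tumour 2 and to 18.1 to 220 CPM in the other 5 tumours. Without KPB1-B tumour 1, 11 of them were lower, and without KPB1-B tumour 2, 2 were higher.

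Some metabolic and stress genes differed widely between the models. Of 26 hypoxia and glycolysis genes, 6 were higher in KPB1-A and 2 lower (median 0.3). The 30.8% called lay below the 51.3% of all genes tested. Without KPB1-B tumour 1, 13 were higher, and without KPB1-A tumour 2 or 3, 1 was lower. The collagen hydroxylase P4ha1 stood at 466, 397 and 498 against 159.9, 87.1 and 93 CPM (log2 fold change 2.02 ± 0.24 (SE), adjusted p = 0.000286) and the glycolytic enzyme Gapdh at 4690.5, 5781 and 4921 against 2764, 1612 and 2577 CPM (log2 fold change 1.16 ± 0.21 (SE), adjusted p = 0.00241). The carbonic anhydrase Car9, the defining hypoxia gene of the list, was higher (log2 fold change 0.96 ± 0.32 (SE), adjusted p = 0.0353) but when 1 tumour was left out passed in 1 of 6 cases, that without KPB1-A tumour 2 (adjusted p in the others 0.0556 to 0.124 by edgeR). Vegfa was not called (log2 fold change -0.56 ± 0.42 (SE), adjusted p = 0.296). In cholesterol metabolism 8 of 23 genes were higher and 5 lower (median -0.03). Aldh3a1, an aldehyde dehydrogenase induced by Nrf2, stood at 9.22, 6.23 and 12.3 against 0.233, 0.1 and 0.082 CPM (log2 fold change 6.03 ± 0.46 (SE), adjusted p = 4.67e-05), within a list of 23 of which 9 were higher and 6 lower (2 without KPB1-A tumour 1, 3 without KPB1-B tumour 2). The heat shock genes Hspa1a and Hspa1b were lower in KPB1-A (-1.88 ± 0.35 and -2.04 ± 0.31), and as near-identical copies they can share reads. Against the 3 earlier KPB1-B libraries Hspa1a stood at 0.061 and Hspa1b at -0.46, neither of which passed the test.

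The differences were not spread evenly over the genome. Chromosome 5 had the highest median log2 fold change, 0.62 over 1174 tested genes, with 611 higher in KPB1-A and 149 lower. Chromosome 2 had the lowest, -0.45 over 1360 genes, with 166 higher and 615 lower. Chromosomes 15 (0.39) and 14 (0.35) followed chromosome 5. DNA copy number was not measured, so these values describe expression alone.

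**Figure D4:**
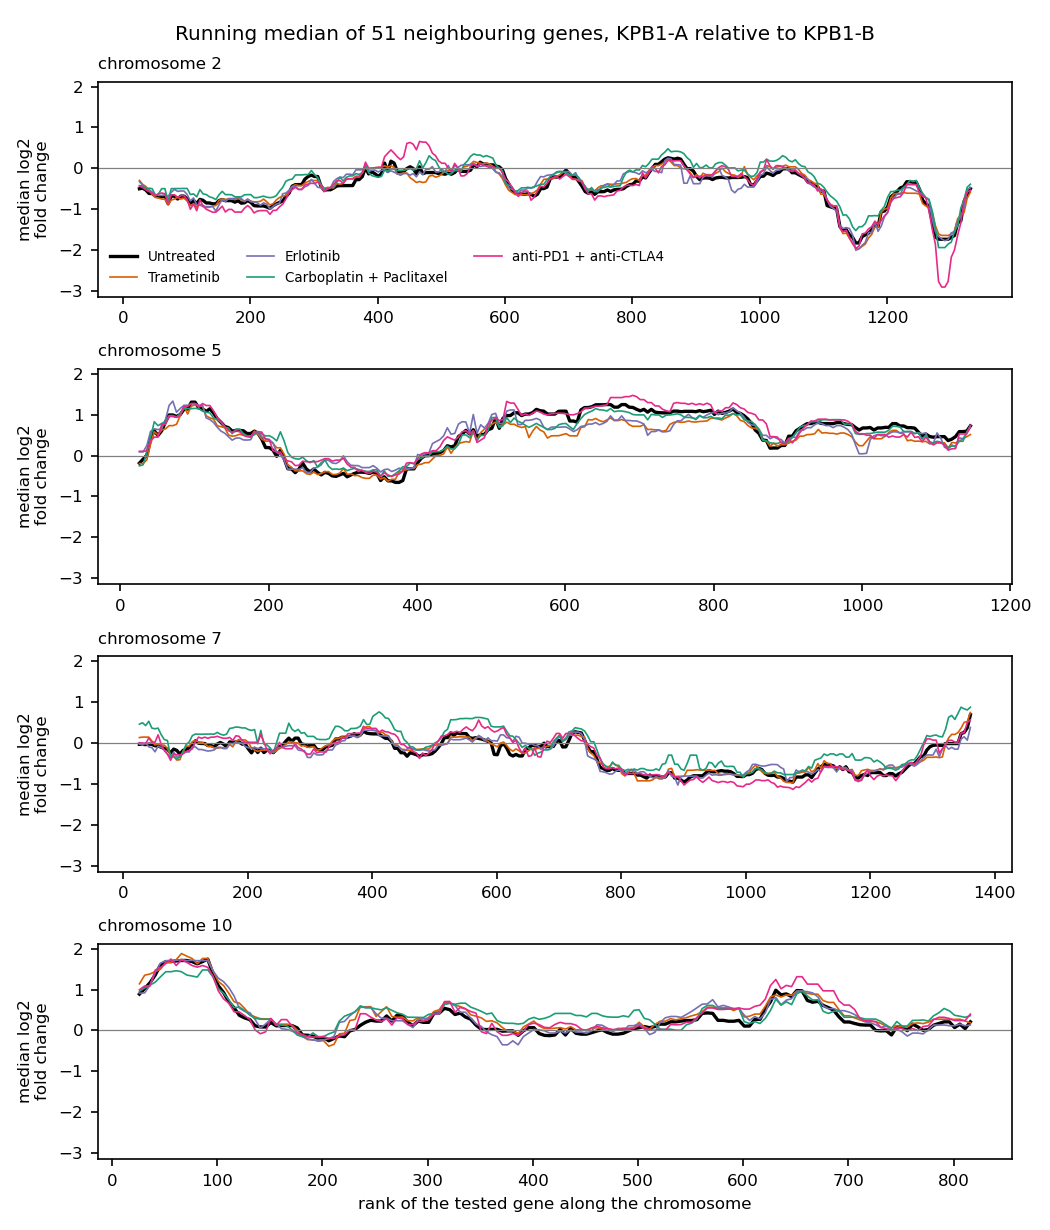
Running median of the log2 fold change (KPB1-A over KPB1-B, vertical axis) of 51 neighbouring tested genes by rank along chromosomes 2, 5, 7 and 10 (horizontal axis, 1 panel each), with untreated tumours as the thick black line and the 4 treated arms as thin coloured lines. Chromosome 5 lies above 0 over most of its length (untreated median 0.62) and chromosome 2 mostly below 0 (-0.45).

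In windows of 51 consecutive tested genes the highest median lay on chromosome 10 from 12916648 to 22103313 (mm10), at 1.81, where 43 genes were higher in KPB1-A and 1 lower. It holds Plagl1, the receptor subunit Il20ra at 13.4, 10.3 and 15 against 1.02, 0.514 and 0.137 CPM (log2 fold change 4.53 ± 0.58 (SE), adjusted p = 0.000456), and the transporter Slc35d3 (4.19 ± 0.84). Against the median of the other models the genes of this window stood at 1.21 in KPB1-A and 0.05 in KPB1-B on the log2 scale. Next came chromosome 5 from 21737141 to 25705825 (median 1.40, 38 higher and none lower), which holds Xrcc2, the chromatin remodeller subunit Smarcd3 (2.2 ± 0.3) and the autophagy gene Atg9b (2.8 ± 0.27). A window on chromosome 4 from 99829198 to 107923610 (median 1.35, 32 higher and 6 lower) holds Dnajc6, an uncoating co-chaperone at 113, 151 and 88.2 against 5.5, 7.12 and 5.76 CPM (log2 fold change 4.28 ± 0.23 (SE), adjusted p = 1.24e-05).

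The lowest windows were on chromosome 2. From 160748708 to 164826871 the median was -1.96, with 39 genes lower in KPB1-A and 6 higher. Slpi, a secreted protease inhibitor in that window, was higher all the same, at 134, 124 and 147 against 2.19, 1.73 and 6.49 CPM (log2 fold change 5.31 ± 0.49 (SE), adjusted p = 0.000103). From 173206612 to 178078476 the median was -1.74, with 47 lower and 1 higher. Gm14322, at 0.0427, 0.14 and 0.042 against 19.4, 17.7 and 13 CPM (log2 fold change -7.73 ± 0.45 (SE), adjusted p = 1.66e-05), belongs to a cluster of similar predicted genes there that can share reads. Relative to the other models the first of these windows stood at -0.40 in KPB1-A and 0.98 in KPB1-B, and the second at -0.01 and 0.86. A window on chromosome 7 from 118842222 to 124708935 (median -1.07, 2 higher and 41 lower) holds Crym, a thyroid hormone binding protein, at 0, 0.036 and 0 CPM in KPB1-A and 2.53, 10.3 and 2.19 in KPB1-B.

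The same contrast was read in tumours under treatment, in 4 arms that share no library with the untreated tumours or with each other. The untreated, trametinib and erlotinib libraries are numbered CP-4279 to CP-4287 in KPB1-A and CP-4511 to CP-4519 in KPB1-B. In the other arms, too, the numbers of the models do not interleave. Model and range of library numbers therefore cannot be told apart in any arm, and a shared sign does not separate them. Trametinib inhibits the kinase MEK, erlotinib the kinase EGFR, carboplatin with paclitaxel damages DNA and stabilises microtubules, and anti-PD1 with anti-CTLA4 blocks T cell checkpoints. Genes different between the models numbered 9633 under trametinib (52.4% of those tested), 9635 under erlotinib (51.4%), 2559 under carboplatin plus paclitaxel (12.9%) and 9769 under the antibodies (50%). Of genes higher in untreated KPB1-A and tested in an arm, 96.4, 94.0, 97.8 and 95.3% had the same sign there, in the order of the arms above, and of genes lower 96.3, 93.1, 91.3 and 95.7%. Among called genes past 2-fold, 2110 of 2431 higher and 1938 of 2298 lower had the same sign in all 4 arms. The chemotherapy arm contains library CP-4288, whose skeletal muscle markers summed to 14642 CPM and macrophage markers to 15630 CPM; without it 7895 genes were called there. The part of these markers in the lower count was not tested.

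Log2 fold changes in the arms are given in the same order for 12 genes picked from those above. Mest showed 6.15, 6.07, 5.0 and 5.91, Axin2 -1.91, -3.44, -2.05 and -3.93, and Wif1 -3.02, -2.42, -3.23 and -2.69. Foxa1 showed 5.14, 6.56, 4.96 and 4.54, Krt5 1.99, 2.79, 3.14 and 3.2, and Krt8 2.09, 2.42, 2.21 and 1.67. Elf5 showed -3.22, -3.37, -3.54 and -3.72, Csn2 -5.84, -3.43, -3.6 and -6.42, and Xist -3.45, -2.36, -3.02 and -4.28. Cpa3 showed 3.72, 4.48, 5.5 and 9.68, Nlrc5 1.58, 1.97, 2.17 and 1.92, and Lef1 2.54, 2.39, 3.09 and 4.83. All 12 genes kept the sign of the untreated comparison in each arm, but they follow no rule set beforehand and do not stand for other genes. Some genes named by rule separated the models the opposite way in an arm, as given below. The median of chromosome 5 was 0.39, 0.54, 0.6 and 0.72 in the arms and that of chromosome 2 was -0.43, -0.45, -0.31 and -0.44. In the highest window of chromosome 10 the arms gave medians of 1.84, 1.75, 1.6 and 1.73.

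**Figure D5:**
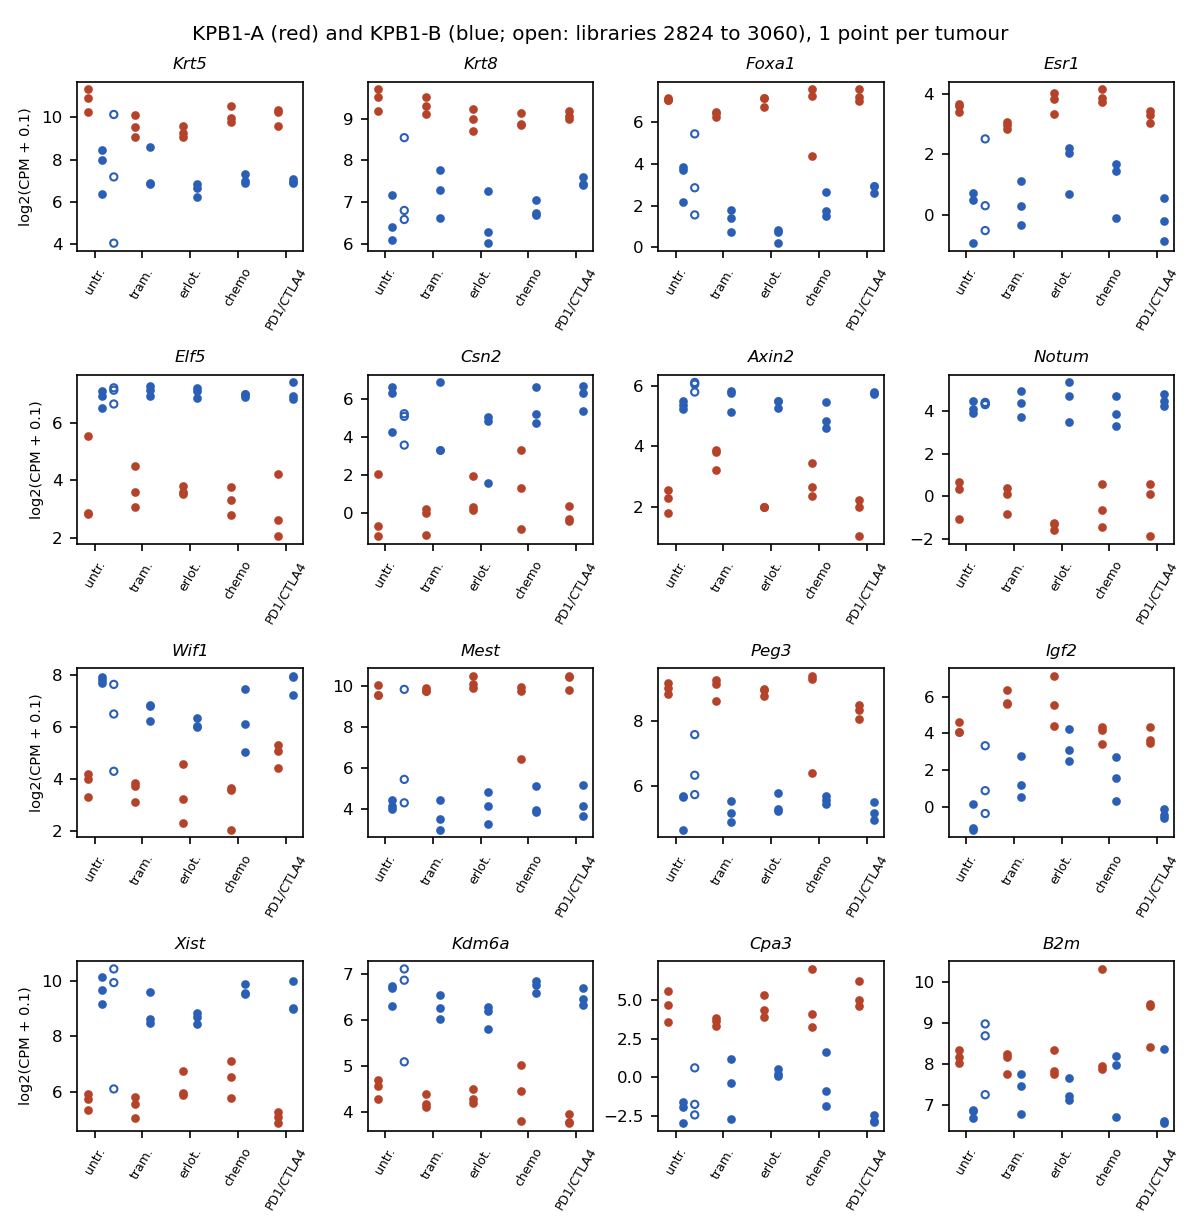
Expression (vertical axis, log2 of CPM plus 0.1) of 16 genes named above in each KPB1-A (red) and KPB1-B (blue) tumour by treatment (horizontal axis), 1 point per tumour, with the earlier untreated KPB1-B libraries as open circles. Mest and Axin2 separate the models in the untreated and treated groups, and the KPB1-B library CP-2825 lies among the KPB1-A tumours for Mest (928 CPM) and among the KPB1-B tumours for Axin2 (69.9 CPM).

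The earlier untreated KPB1-B libraries, which share the model label, were set beside the later ones. They held 50688379 to 60726794 counts, with 5.29 to 6.49% mitochondrial. Between the 2 KPB1-B sets 267 of 18049 genes (1.48%) passed the test, or 1461 with DESeq2 and 8 to 440 without 1 library, 440 of them without CP-2825. Of 390 called genes more than 8-fold higher in KPB1-A, 6 stood on the KPB1-A side of the midpoint in library CP-2824 and 8 in library CP-3060, but 139 (35.6%) in library CP-2825. Of 466 called genes more than 8-fold higher in KPB1-B, 433 (92.9%), 403 (86.5%) and 178 (38.2%) stood on the KPB1-B side in these libraries. Mest thus stood at 19.4, 928 and 43.3 CPM in libraries CP-2824, CP-2825 and CP-3060, Krt5 at 145, 1127 and 16.3 and Xist at 985, 68.2 and 1388. Axin2 (67.1, 69.9 and 56 CPM), Notum (19.4, 20.1 and 20.9 CPM) and Met (59.4, 124 and 49.4 CPM) were on the KPB1-B side in all 3. Against the 3 earlier KPB1-B libraries, 6170 genes differed from untreated KPB1-A, and against libraries CP-2824 and CP-3060 alone 10030, a comparison added after the position of library CP-2825 had been seen. These 2 comparisons use the same KPB1-A tumours as the main one.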

How the data were processed

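Total RNA of frozen mouse mammary tumours was sequenced from poly(A) libraries, per the labels' protocols. STAR, SAMtools, Picard and Salmon with the mouse build mm10 were used by the authors, per the submitters' processing notes; the sources used here give neither versions nor strandedness. The authors deposited Salmon estimated counts per gene symbol, of which 8.35% were not whole, and a second table of normalized signal, in which each deposited value equals the estimated count over the 75th percentile of the library's values above 0, times 1000.

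Estimated counts were rounded and tested with edgeR 4.0.16 (R 4.3.3) by quasi-likelihood F-test after filterByExpr and TMM scaling, with only the 6 libraries of each comparison in the fit. P-values were adjusted by Benjamini-Hochberg over all genes tested, with a threshold of 0.05. CPM values used TMM over 88 libraries and are not scaled by gene length. The procedure was tested on simulated data. Positions came from GENCODE M21 and promoters from RefSeq (GRCm38.p6).

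The genes named by rule are the 12 highest and 12 lowest called genes averaging log2 CPM 2 or more and non-overlapping groups, leaving out predicted genes; in each of 47 gene lists the first 2 members and up to 4 most changed called members; the most changed genes of the outlying windows of 51 genes; and 20 genes of fixed interest. Some genes that these rules name are not reported here. Other members named from a list were chosen after their values were seen. The members and lists were chosen with earlier results of these data known. Floors are 3 counts per library and cover counting error only. Alternatives were other scalings (RLE, upper quartile), no filter, DESeq2 1.42.0, limma 3.58.1 on log2 of the normalized table plus 1, 1 fit over 33 libraries, other KPB1-B libraries, and leaving out each library in turn.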

Additional observations from a re-analysis of the deposited data

Results flagged for a closer look

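Among the genes named by rule, 7 were found in which every untreated tumour separated the models 1 way and every tumour of a treated arm separated them the opposite way. All reported genes named by rule and tested were searched in the 4 arms, and 220 of them had passed the untreated test. The share of such opposite separations over all genes tested was not counted. None of these differences between arms was tested, and no explanation was weighed. Mycn, higher in untreated KPB1-A by a log2 fold change of 1.21, stood at -0.57 under trametinib. Top2a, at -0.36 untreated, stood at 0.54 under trametinib and 1.03 under erlotinib. Nqo1, an Nrf2 target at 0.67 untreated, stood at -0.23 under erlotinib and -0.15 under anti-PD1 plus anti-CTLA4. The chemokine Cxcl5, at 3.49 untreated, stood at -1.28 under trametinib. The mitochondrially encoded mt-Atp6, at -0.99 untreated, stood at 1.66 under anti-PD1 plus anti-CTLA4, and mt-Nd5, at 0.8 untreated, stood at -0.67 under carboplatin plus paclitaxel. The haemoglobin gene Hba-a1, at 0.92 untreated, stood at -1.32 under erlotinib; it shares reads with a near-identical copy. Against the other sets of untreated KPB1-B libraries mt-Nd5 stood between -1.46 and -0.49. Over all genes called in untreated tumours, those called in the opposite direction numbered 15 of the higher and 15 of the lower under trametinib, 24 and 51 under erlotinib, 1 and 0 under carboplatin plus paclitaxel, and 12 and 17 under the antibodies.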

How the results depend on the processing

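The count of 9400 genes between the untreated models stayed between 7147 and 9789 under other scalings, no filter, DESeq2, limma and 1 fit over 33 libraries, between 7591 and 9275 without 1 library, at 6871 with all 6 untreated KPB1-B libraries, and at 9044 with 5 of them (without library CP-2825, added after seeing the data). With libraries CP-2824 to CP-3060 in place of CP-4511 to CP-4513 it was 6170. The 23 reported genes of the 12 highest and 12 lowest kept direction and call, except 1 with libraries CP-2824 to CP-3060 (21 tested) and 1 with all 6. They were picked as extremes of this same comparison, which makes their stability a weak check. Of 220 named genes called in the main comparison, 175 kept direction and call in 1 fit over 33 libraries and 171 with all 6. With libraries CP-2824 to CP-3060, 138 of 211 tested did, 61 no longer passed and 12 changed sign.

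Some genes changed sign with other KPB1-B libraries, and the cause was not tested. With libraries CP-2824 to CP-3060 the log2 fold change was -1.07 for Cnn1, -0.76 for Cdh2, -1.15 for Krt7, 0.012 for Top2a, 0.13 for Slc31a2, -0.26 for Ifit1, -0.31 for B2m, -1.46 for mt-Nd5, 0.061 for Hspa1a, 0.47 for S100a9, 0.085 for Cxcr2 and 0.49 for Ccr7. With all 6 it was -0.23 for Cnn1, -0.17 for Krt7 and -0.73 for mt-Nd5. With libraries CP-2824 and CP-3060 (added after seeing the data) it was 0.64 for Vim, -1.01 for Lgr5, -1.43 for mt-Nd5, 1.17 for S100a9, 0.16 for Cxcr2 and 0.23 for Ccr7, and with 5 libraries -0.49 for mt-Nd5.

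Under carboplatin plus paclitaxel the 2559 genes became 1622 with no filter, 4986 with DESeq2 and 0 to 7895 without 1 library, the highest without library CP-4288. In the 3 cases at 0 under edgeR, 21.9, 20.5 and 19.2% of genes tested had an unadjusted p under 0.05, and DESeq2 called 3505, 3064 and 2802. The 267 genes between the KPB1-B sets became 1461 with DESeq2 and 8 to 440 without 1 library, the highest without library CP-2825. On the authors' normalized table, limma put 36.5, 36.6, 22.0 and 40.4% of the calls higher in KPB1-A under trametinib, erlotinib, chemotherapy and the antibodies, where edgeR put 49.0, 50.0, 47.5 and 51.4%. No paired analysis was possible because the labels give no replicate numbers shared between the groups.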

Other observations

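Further gene groups were read in the same comparison. Of the neuronal genes, the tubulin Tubb3 stood at 37.7, 24.1 and 22.9 CPM in KPB1-A and 7.2, 6.34 and 8.54 in KPB1-B (log2 fold change 1.96 ± 0.23 (SE), adjusted p = 0.000293) and the deubiquitinase Uchl1 at 13.2, 14 and 15.3 against 4.63, 6.86 and 5.18 CPM (log2 fold change 1.37 ± 0.19 (SE), adjusted p = 0.000629), while the neurofilament gene Nefl was near 0 in both models. In the amino acid and unfolded protein stress list 7 of 25 genes were higher in KPB1-A and 9 lower (median -0.19). The chaperone Dnajb9 was lower at 7.63, 10.4 and 8.99 against 32.3, 33.4 and 23.9 CPM (log2 fold change -1.71 ± 0.18 (SE), adjusted p = 0.000174), as was the stress protein Nupr1 (-1.81 ± 0.33), and Sdf2l1 was higher (1.11 ± 0.1). The defining genes Ddit3 (log2 fold change 0.32 ± 0.34 (SE), adjusted p = 0.453) and Asns (log2 fold change -0.21 ± 0.14 (SE), adjusted p = 0.229) did not pass the test. Abca1, which exports cholesterol, was lower at 22.3, 22.4 and 19.5 against 71.4, 70.3 and 72 CPM (log2 fold change -1.72 ± 0.1 (SE), adjusted p = 1.85e-05).

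Several cell type lists gave mixed counts. Of 10 dendritic cell genes, 3 were higher and 3 lower, with the factor Batf3 higher (1.34 ± 0.31) and the migration receptor Ccr7 lower (-1.12 ± 0.28). Only 1 was lower without KPB1-A tumour 2, KPB1-B tumour 2 or KPB1-B tumour 3, and Ccr7 stood at 0.49 against the 3 earlier KPB1-B libraries and 0.23 against CP-2824 and CP-3060. The B cell gene Cd79a was too low to be tested, and the antibody heavy chain gene Ighm was lower in KPB1-A (-1.96 ± 0.41). Of the germline list, Piwil2, a partner of small RNAs in the testis, stood at 122, 94.1 and 116 against 55, 38.1 and 49.7 CPM (log2 fold change 1.24 ± 0.16 (SE), adjusted p = 0.000494), while Magea4 and Magea5 were at 0 in all 6 tumours.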
